A study of Mus musculus with 2 samples.

Results

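The BMP and TGF-beta pathway was described in the hindbrain of the mouse embryo through 44 genes, chosen by name for their place in the pathway and not by their values. They are 18 ligands, 10 receptors, 4 antagonists, 8 Smads and the 4 Id genes, out of 43346 Ensembl genes in the gene tables, and every member was found in them by its GENCODE symbol. The data are total RNA-seq of 1 group, the hindbrain at embryonic day 12.5 (e12.5) of strain B6NCrl, in 2 biological replicates made from pooled embryos of mixed sex. Replicate 1 pooled 120 embryos and replicate 2 pooled 88. No group was treated or mutant, so the design yields the level of each gene with its spread between pools, and any p-value compares 2 libraries and not 2 conditions. A pool averages over embryos and over every cell type in the dissected tissue, so where a level is low, fewer cells of a type and less RNA per cell cannot be told apart.

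BMPs, GDFs, activins, Nodal and TGF-betas are secreted dimers of 1 superfamily. A ligand brings type II receptors, which are active kinases, together with type I receptors, and the type I receptor then phosphorylates receptor Smads. Smad1, Smad5 and Smad9 carry the signals of most BMPs and some GDFs, and Smad2 and Smad3 carry activin, Nodal and TGF-beta signals. Both sets join Smad4 in the nucleus, while Smad6 and Smad7 inhibit the pathway and Noggin, Chordin, Follistatin and Gremlin bind ligands outside the cell. In the developing hindbrain and spinal cord, BMPs and GDFs from the roof plate and the overlying ectoderm are known for setting the identity of dorsal progenitors, and the Id genes are classical BMP targets.

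Sequencing depth, as the sum of expected counts, was 31633169 for replicate 1 and 29766460 for replicate 2. The members took 67519 counts of replicate 1, or 0.213% (95% Wilson interval 0.212% to 0.215%), and 62057 counts of replicate 2, or 0.208% (0.207% to 0.21%). These intervals cover counting error only. Levels between genes are compared in TPM, a transcript abundance that is divided by length. The TPM total includes the ERCC spike-in RNAs, which took 8.39% of it in replicate 1 and 10.9% in replicate 2. Of the 44 members, 41 reached 1 TPM in both libraries and were called detected, where 35.5% of all Ensembl genes and 63% of protein-coding genes did. The 3 others were the ligands Gdf6 and Nodal and the receptor Smad gene Smad9. Across the 44 genes the levels of the libraries ran together, with a Spearman rho of 0.990 and a Pearson r of 0.994 on the log2(TPM + 1) scale. This is a description across genes, which are not independent replicates.

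Receptors and Smads were each more abundant in sum than the ligands, and the Id genes stood above every other class. The ligands summed to 166.8 and 164.5 TPM in replicates 1 and 2, a mean of 165.7 ± 1.6 TPM (SD, n = 2). The receptors summed to 291.3 ± 0.608 TPM and the Smads to 199.6 ± 2.45 TPM, with differences between the libraries that were small beside the distance between these classes. Because the spike-in share of TPM differed between the libraries, these SDs depend on the spike-ins being counted in the total. The 4 Id genes alone summed to 856.3 and 808.2 TPM in replicates 1 and 2. The antagonists were the class of lowest sum, at 16.5 TPM and 19.99 TPM in replicates 1 and 2. Classes differ in size, so their medians were also compared within each library on the log2(TPM + 1) scale. The receptor median exceeded the ligand median by 1.58 in replicate 1 and 1.35 in replicate 2. The Smad median exceeded it by 1.89 and 1.58, and the Id median by 5.15 and 4.96, in the same order of libraries. For the antagonists the difference from the ligands was 0.08 and 0.13, so a typical antagonist gene was at a level close to that of a typical ligand gene in each library.

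**Figure D1:**
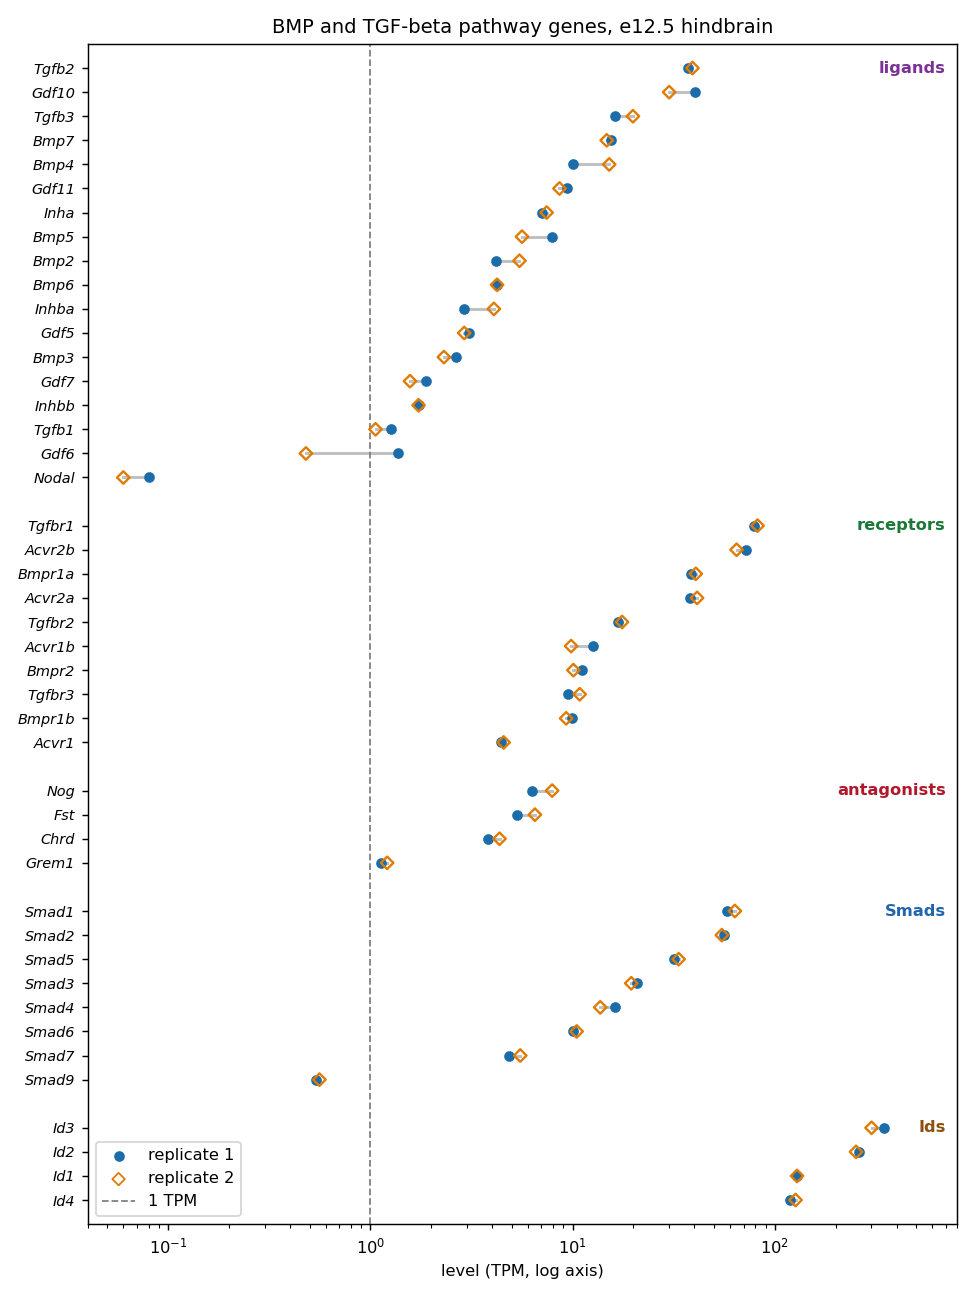
Level of each of the 44 genes in TPM on a log axis, with filled circles for replicate 1, open diamonds for replicate 2 and a dashed line at 1 TPM. Genes are ordered by mean level within their class, and the 4 Id genes lie to the right of every other member, above 118 TPM in both libraries.

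Among the ligands, Tgfb2 and Gdf10 were the most abundant. Tgfb2 encodes TGF-beta 2, a ligand of the Smad2 and Smad3 arm, and lies at chr1:186622792-186705989 on the minus strand (mm10). It had 37.2 TPM in replicate 1 and 39.1 TPM in replicate 2. Gdf10, at chr14:33923587-33937983 on the plus strand, encodes a BMP3-like ligand and had 40.32 TPM in replicate 1 and 30.03 TPM in replicate 2. The ranges of this pair overlapped, and each led in a different library. Tgfb3, the gene of another TGF-beta, had 16.2 and 19.9 TPM in replicates 1 and 2, while Tgfb1 had 1.27 and 1.06 TPM. In both libraries the TGF-beta ligands thus stood in the order Tgfb2, Tgfb3, Tgfb1 without overlap, and Tgfb2 alone held 22.3% and 23.8% of the summed ligand level. The Tgfb2 level includes forms annotated as retained introns and processed transcripts. Its coding forms, Tgfb2-201 (14.71 and 15.69 TPM) and Tgfb2-206 (6.93 and 11.73 TPM), were together below Gdf10 in each library.

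The BMP and GDF genes together summed to 100.4 and 91.14 TPM in replicates 1 and 2, of which Gdf10 held 40.2% and 32.9%. Next came Bmp7, a ligand of the roof plate, with 15.4 TPM in replicate 1 and 14.8 TPM in replicate 2. Bmp4, which in the embryo acts from dorsal midline and surface tissues, had 10.1 TPM in replicate 1 and 15.2 TPM in replicate 2. Bmp7 and Bmp4 overlapped and changed places between the libraries. Gdf11, a ligand related to myostatin that signals through activin receptors, was at 9.35 and 8.61 TPM in replicates 1 and 2. The BMP and GDF group is thus one of names, and its sum is not that of the BMP arm alone.

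The lower BMP and GDF ligands kept 1 order in both libraries except for Bmp2 and Bmp6. Bmp5 had 7.88 TPM in replicate 1 and 5.62 TPM in replicate 2. Bmp2, the closest relative of Bmp4, had 4.18 and 5.46 TPM, and Bmp6 had 4.22 and 4.23 TPM, so that the range of Bmp2 enclosed that of Bmp6. Gdf5, known for its part in joint formation, had 3.06 and 2.91 TPM and Bmp3 had 2.64 and 2.31 TPM in the same order of libraries. Gdf7, a roof plate ligand that instructs dorsal interneurons in the mouse, was low here, at 1.89 and 1.57 TPM in replicates 1 and 2, from 47 and 36 counts. Gdf6, the closest relative of Gdf7 and Gdf5, had 1.37 TPM in replicate 1 and 0.48 TPM in replicate 2, and so passed 1 TPM in replicate 1 alone.

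The activin and inhibin subunits were a minor share of the ligands, with sums of 11.67 and 13.25 TPM in replicates 1 and 2. Inha, whose product turns activin subunits into inhibins, was the highest of them, at 7.05 and 7.44 TPM in replicates 1 and 2. Inhba had 2.89 and 4.08 TPM and Inhbb had 1.73 TPM in each library. Nodal, the ligand of early germ layer and left-right patterning, had 3 counts in replicate 1 and 2 counts in replicate 2. These counts are at or under the limit of 3 counts that a count of 0 allows, which for Nodal is 0.0792 TPM in replicate 1 and 0.0859 TPM in replicate 2. Its expression was not detectable at this depth.

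The antagonists were all detected and all modest. Nog, the gene of Noggin, which blocks BMP2, BMP4 and BMP7, had 6.28 TPM in replicate 1 and 7.92 TPM in replicate 2. Fst, whose product Follistatin sequesters activins, had 5.28 and 6.51 TPM, a range that overlapped that of Nog. Chrd, the gene of Chordin, had 3.81 and 4.35 TPM, and Grem1, the gene of Gremlin 1, had 1.13 and 1.21 TPM. All 4 had the lower TPM in replicate 1, and none was called different between the libraries, with log2 count ratios that were below 0 as scaled here and above 0 when scaled by spike-ins. Against the BMP and GDF ligands, the antagonists summed to a ratio of 0.164 in replicate 1 and 0.219 in replicate 2.

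All 10 receptor genes were detected, and they spread from about the level of a lower ligand to levels that few protein-coding genes exceed. Tgfbr1, the type I receptor of TGF-beta at chr4:47353222-47414931 on the plus strand, was the highest, with 78.7 TPM in replicate 1 and 82.1 TPM in replicate 2. It ranked at the 90.1 percentile of protein-coding genes by mean TPM. Its partner Tgfbr2, the type II receptor that binds TGF-beta, was much lower, at 16.7 and 17.6 TPM, so that the type I gene exceeded the type II gene 4.71-fold in replicate 1 and 4.68-fold in replicate 2. Tgfbr3, the gene of the coreceptor betaglycan, which presents TGF-beta 2 to Tgfbr2, had 9.52 and 10.8 TPM.

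Of the BMP type I receptors, Bmpr1a led. It had 38.7 TPM in replicate 1 and 40.7 TPM in replicate 2, whereas Bmpr1b had 9.90 and 9.29 TPM and Acvr1 had 4.44 and 4.56 TPM. The ratio of Bmpr1a to Bmpr1b was 3.9 in replicate 1 and 4.38 in replicate 2. Acvr1b, the activin and Nodal type I receptor, was at 12.6 and 9.83 TPM in replicates 1 and 2.

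The type II receptors shared by activins and BMPs were far more abundant than the receptor dedicated to BMPs. Acvr2b, at chr9:119402118-119434995 on the plus strand, had 72.0 TPM in replicate 1 and 64.7 TPM in replicate 2. Acvr2a had 38.0 TPM in replicate 1 and 41.3 TPM in replicate 2, which could not be ordered against Bmpr1a. Bmpr2 had 11.1 and 10.1 TPM, a range that overlapped those of Acvr1b and Tgfbr3 and lay above that of Bmpr1b. The sum of Acvr2a and Acvr2b was 9.88 times the level of Bmpr2 in replicate 1 and 10.5 times in replicate 2. Bmpr2 as a gene, over its transcripts, has an effective length of 12303.85 nt in replicate 1. Its 2600 counts there thus amount to a lower level per length than the 2205 counts of Acvr2b. The exons of Acvr2a share 446 bases with Orc4 on the opposite strand, a replication gene at 87.8 and 105 TPM in replicates 1 and 2. No source used here says if reads were counted by strand, so the level of Acvr2a is uncertain to that extent. The same holds for Bmp6, which shares 224 exon bases with the opposite gene Txndc5 at 135 TPM in each library, and for Bmpr1a, which shares 290 with Gm17110 at 4.99 and 4.24 TPM.

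The Smads kept 1 order in both libraries without any overlap between neighbours. Smad1, at chr8:79338395-79399518 on the minus strand, was the highest, with 58.2 TPM in replicate 1 and 63.4 TPM in replicate 2. Smad2 had 55.8 and 54.7 TPM, Smad5 had 31.6 and 33.5 TPM and Smad3 had 20.7 and 19.5 TPM. Smad4, the common partner, had 16.1 TPM in replicate 1 and 13.7 TPM in replicate 2, below each of those 4 receptor Smad genes.

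Within the BMP arm, Smad1 exceeded Smad5 1.84-fold in replicate 1 and 1.9-fold in replicate 2. Smad9 was the exception, with 54 counts in replicate 1 and 52 counts in replicate 2, or 0.54 and 0.56 TPM, far above its limit of 0.03 and 0.0325 TPM but under 1 TPM. In the other arm, Smad2 exceeded Smad3 2.69-fold and 2.81-fold. The BMP receptor Smads summed to 1.18 times the activin and TGF-beta receptor Smads in replicate 1 and 1.31 times in replicate 2. The inhibitory genes came last among the detected Smads, with Smad6 at 10.1 and 10.5 TPM and Smad7 at 4.82 and 5.51 TPM. Smad6 acts mainly on BMP signals and Smad7 on both arms.

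The Id genes, whose products lack a DNA-binding region and hold basic helix-loop-helix factors inactive, were the 4 highest members. Id3, at chr4:136143497-136145755 on the plus strand, had 348 TPM in replicate 1 and 301 TPM in replicate 2. Id2, at chr12:25093799-25097140 on the minus strand, had 262 and 252 TPM. Id1, at chr2:152736251-152737410 on the plus strand, had 128 and 129 TPM, and Id4, at chr13:48261228-48266026 on the plus strand, had 118 and 127 TPM. The order Id3, Id2, Id1, Id4 was the same in both libraries, and no neighbours overlapped. By mean TPM they stood at the 98.2, 97.6, 94.4 and 94.1 percentiles of protein-coding genes in that order. The level of Id3 was 2.94 times that of Id4 in replicate 1 and 2.38 times in replicate 2.

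Stretches near the starts of 2 Id genes and of Smad6 are shown because these genes are known to respond to BMP signals and because each holds a Smad-binding motif. The motif GGCGCC is a GC-rich box to which BMP Smads bind, and GTCTAGAC is the palindromic Smad-binding element. Both read the same on either strand, and neither can lie inside the other. Sequences are from RefSeq on GRCm38.p6, read 5′ to 3′ on the strand of the gene, with the motif in capitals. The Id2 stretch is chr12:25096254-25096342 (minus), the 89 bases from 250 to 162 before the RefSeq start. The Id4 window is chr13:48260866-48261115 (plus), the 250 bases before the RefSeq start. The RefSeq starts of Id2 and Smad6 are also those of the GENCODE transcripts Id2-201 and Smad6-201. Another Id2 transcript, Id2-202, begins farther upstream at 25097140, so the Id2 stretch lies inside the gene bounds given above, in an intron of Id2-202. GENCODE begins Id4 112 bases downstream of the RefSeq start. The Smad6 window is chr9:64022056-64022155 (minus), of which 96 bases lie before the start and 4 after it.
Id2: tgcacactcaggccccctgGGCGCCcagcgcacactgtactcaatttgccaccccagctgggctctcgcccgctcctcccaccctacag
Id4: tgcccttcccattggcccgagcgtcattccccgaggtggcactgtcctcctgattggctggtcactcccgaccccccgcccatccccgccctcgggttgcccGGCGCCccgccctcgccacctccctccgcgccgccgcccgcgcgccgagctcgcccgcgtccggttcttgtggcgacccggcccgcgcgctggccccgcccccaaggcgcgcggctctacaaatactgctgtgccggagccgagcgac
Smad6: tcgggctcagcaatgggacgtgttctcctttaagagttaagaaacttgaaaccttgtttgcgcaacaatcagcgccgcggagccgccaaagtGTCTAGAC
The GGCGCC box began 231 bases before the RefSeq start of Id2 and 148 bases before that of Id4. The palindrome began 4 bases before the start of Smad6 and so spans it. Start windows of 250 bases before and 50 after the start were at hand for 31 of the 44 members, in 36 windows. GGCGCC was in 12 of these windows, belonging to 11 members (Acvr1b, Bmpr1a, Bmpr2, Chrd, Gdf10, Grem1, Id2, Id4, Smad5, Smad9 and Tgfbr1), and in 11.9% of all 32851 windows. GTCTAGAC was in the Smad6 window alone among the members and in 0.213% of all windows. A match describes the letters and shows no binding, and members without one may have sites elsewhere.

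The transcript tables list 114 transcripts for the 44 genes. For 19 members a single transcript was annotated. Of the 25 with 2 or more, 24 had the same leading transcript in both libraries, 14 had a leading transcript with 90% or more of the gene's level in each library, and all 25 leading transcripts were protein coding. Members at a mean of 5 TPM or more whose leading transcript changed or held under 70% were Tgfb2 and Acvr2b. The other members above that level whose leading transcript held under 80% were Tgfbr2, Bmp7, Smad2 and Bmpr1b, a limit chosen after the values were seen. These shares are estimates by the authors' software from fragments that transcripts share.

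For Tgfb2, the leading coding transcript Tgfb2-201 held 39.53% of the gene's level in replicate 1 and 40.09% in replicate 2. The other coding form, Tgfb2-206, held 18.62% in replicate 1 and 29.96% in replicate 2, from 444.99 and 694.72 expected counts. Tgfb2-205, annotated as a retained intron, went the other way, with 24.44% and 15.66%. The leading form was thus stable while the next forms changed places between the pools. Acvr2b was divided almost evenly, with Acvr2b-201 at 52.25% in replicate 1 and 49.19% in replicate 2 and Acvr2b-202 at 47.75% and 50.81%, so that the leading form differed by library. Tgfbr2-201 held 72.46% and 71.57% and Tgfbr2-202 held 27.54% and 28.43%. Bmp7-201 held 72.47% and 75.18%, with the rest in the retained intron form Bmp7-202. Smad2-205 held 75.21% and 75.79% of its gene and Bmpr1b-201 held 75.27% and 78.56%.

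**Figure D2:**
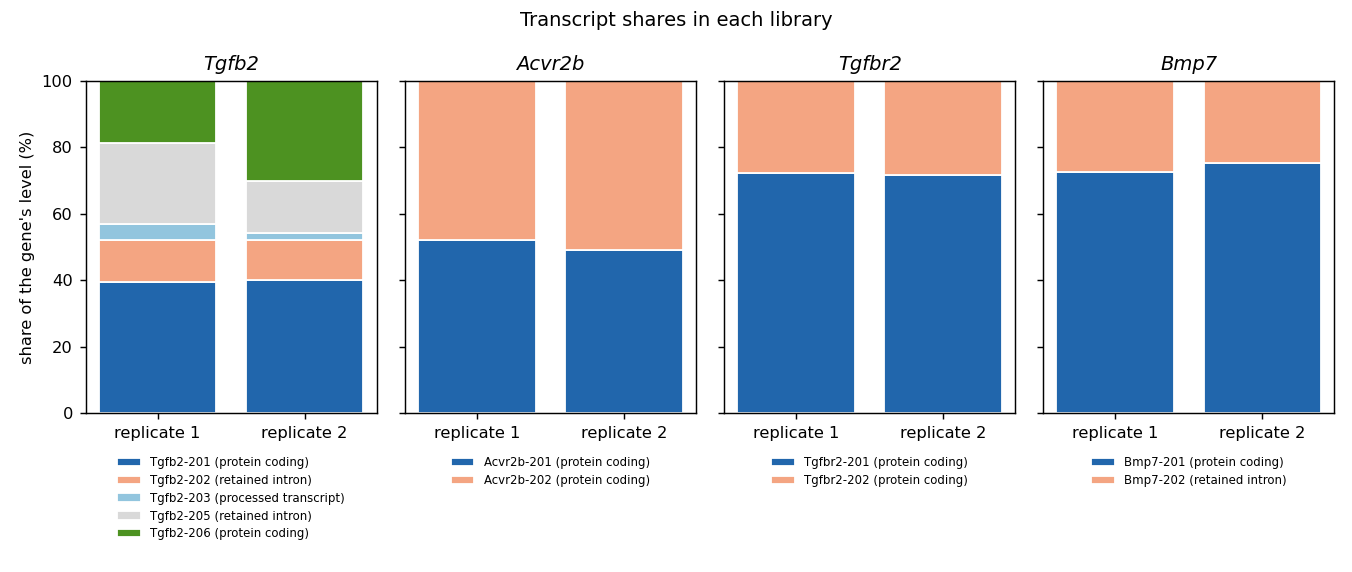
Share of each gene's level, in percent, held by its transcripts in replicate 1 (left bar) and replicate 2 (right bar) for Tgfb2, Acvr2b, Tgfbr2 and Bmp7. The green block of Tgfb2-206 covers 18.62% in replicate 1 and 29.96% in replicate 2, and the 2 forms of Acvr2b divide the gene almost evenly in each library.

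In 3 of these genes the coding forms differ by a short in-frame coding segment, printed here as the coding difference between them. The forms of Tgfb2 and of Acvr2b also differ in length outside it, so those estimated shares do not rest on the segment alone. For Tgfbr2 the forms as quantified were 4710 and 4785 nt long, so by length only the segment of 75 nt separated them. Segments are in capitals, with 20 bases of the joined transcript on each side in lower case, read 5′ to 3′ on the strand of the gene from GENCODE M21 transcripts (mm10). In Tgfb2 the segment is exon 2 of Tgfb2-206, 84 nt at chr1:186690721-186690804 (minus). In Tgfbr2 it is exon 2 of Tgfbr2-202, 75 nt at chr9:116158271-116158345 (minus). In Acvr2b it is the first 24 nt of exon 4 of Acvr2b-202, at chr9:119428201-119428224 (plus).
Tgfb2: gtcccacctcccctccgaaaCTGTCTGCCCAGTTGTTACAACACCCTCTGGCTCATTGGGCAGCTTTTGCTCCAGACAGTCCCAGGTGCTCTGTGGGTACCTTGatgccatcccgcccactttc
Tgfbr2: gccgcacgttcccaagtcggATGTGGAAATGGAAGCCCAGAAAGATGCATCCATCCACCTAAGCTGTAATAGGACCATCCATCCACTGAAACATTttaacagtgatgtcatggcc
Acvr2b: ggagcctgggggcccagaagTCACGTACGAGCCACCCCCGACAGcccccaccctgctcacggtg
Of the 2 coding forms of Tgfb2, the one with the segment held 32% in replicate 1 and 42.8% in replicate 2. For Tgfbr2 the form with the segment held 27.5% and 28.4%, and for Acvr2b 47.7% and 50.8%. The longer Tgfb2 and Tgfbr2 products are known alternative forms of the precursor and of the extracellular part of the receptor. The deposited tables used an older annotation. For the Tgfb2 pair and Acvr2b-201 the transcript lengths in the files equal those of GENCODE M21. They differ for Tgfbr2-201 (4710 nt in the files, 3476 nt in M21), Tgfbr2-202 (4785 and 8092 nt) and Acvr2b-202 (1696 and 2093 nt), so the shares of these belong to forms whose ends were drawn differently.

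The libraries were then compared with each other, as the one difference the design contains. Rounded expected counts were tested for each gene by a two-sided exact binomial test with Benjamini-Hochberg adjustment over 19209 genes, which allows for counting error only. It called 14 of the 43 members tested, 8 higher and 6 lower in replicate 1, where 20.4% of all genes tested were called, 9.68% higher and 10.7% lower. Among genes with 100 or more counts, 25.8% were called, and 15 of 41 members. Whether the members' share exceeds that of genes of like depth was not tested. The members' median log2 ratio of replicate 1 over replicate 2 was -0.04, against 0.00 over all genes. Their median absolute log2 ratio was 0.11, against 0.13 over all genes.

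When a dispersion shared by all genes was added, in edgeR's exact test, 1 member was called, higher in replicate 1, where 1.57% of all genes were, 0.625% higher and 0.942% lower in replicate 1. That dispersion came from the same 2 libraries and corresponds to a coefficient of variation of 9.02%. The member was Gdf6, at chr4:9844372-9862345 on the plus strand. It had 89 counts in replicate 1 (95% Poisson interval 71.47 to 109.5) and 29 counts in replicate 2 (19.42 to 41.65). Its log2 ratio was 1.50, with an adjusted p of 3.68e-06 by the exact binomial test and 0.00199 by edgeR's exact test. In mouse embryos Gdf6 is known for its part in joint formation. The list of epithelial and otic markers moved the same way, with all 5 genes called higher in replicate 1 by the binomial test and sums of 331.5 TPM in replicate 1 and 155.9 TPM in replicate 2. Its most abundant genes were Oc90, of the otic vesicle, at 247 and 107 TPM and Epcam at 33.0 and 16.4 TPM. No marker of the list was at 0 in either library, and its part in the Gdf6 difference was not tested.

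**Figure D3:**
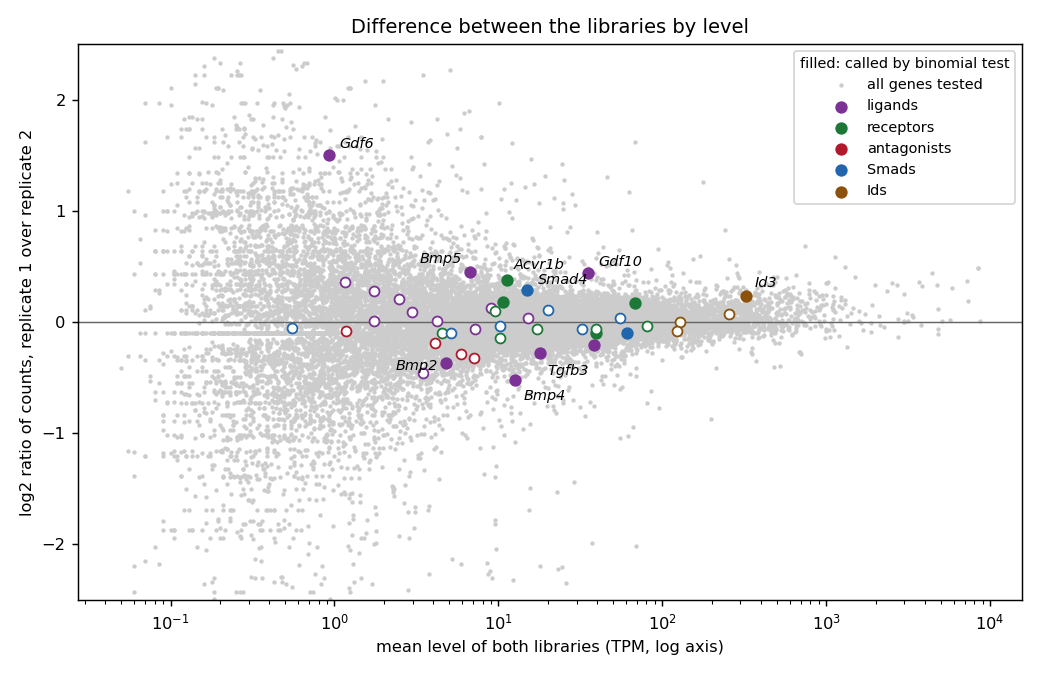
Log2 ratio of counts, replicate 1 over replicate 2, against mean level in TPM on a log axis, for all genes tested (grey) and the members, coloured by class and filled where the exact binomial test called them. Gdf6 stands at 1.50 with a mean under 1 TPM, and the other members lie between -0.52 and 0.45; genes beyond the range of the vertical axis are not drawn.

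The ligands, 18 of the 44 members, made up 7 of the 14 binomial calls, where 20.4% of all genes tested were called. Gdf10 had 1842 counts in replicate 1 and 1265 counts in replicate 2, a log2 ratio of 0.44 (exact binomial adjusted p = 2.86e-15, edgeR adjusted p = 0.507). Bmp5 was also higher in replicate 1, with a log2 ratio of 0.45 (exact binomial adjusted p = 8.04e-05). Lower in replicate 1 were Bmp4, with 353 and 471 counts in replicates 1 and 2 and a log2 ratio of -0.52 (exact binomial adjusted p = 7.41e-06), and Bmp2, with a log2 ratio of -0.37 (exact binomial adjusted p = 0.0123). Tgfb3 and Tgfb2 were lower in replicate 1 as well, with log2 ratios of -0.28 and -0.21. For Tgfb2 this came with TPM values that differed by less, since its transcript mix gave an effective length of 2902.91 nt in replicate 1 and 3234.54 nt in replicate 2. The ligands called thus went in both directions. Over all ligands tested the median absolute log2 ratio was 0.28, against 0.24 for the antagonists, 0.10 for the receptors and 0.08 for the Smads and for the Ids. Ligands and antagonists were also the classes of lower level, with mean medians of 4.522 and 4.987 TPM. The receptors had 14.44 TPM, the Smads 17.52 TPM and the Ids 192.7 TPM. No test of these differences in ratio was made.

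The other 7 calls were among receptors, Smads and Ids. Acvr1b was higher in replicate 1 with a log2 ratio of 0.38, Smad4 with 0.29, Id3 with 0.23, Bmpr2 with 0.18 and Acvr2b with 0.17. Acvr2a and Smad1 were lower in replicate 1, each with a log2 ratio of -0.10. None of these 7, and no antagonist, was called by edgeR's exact test, where the adjusted p of Acvr1b was 0.792. Id3, with 7524 counts in replicate 1 and 5996 counts in replicate 2, had the smallest adjusted p of the members by the exact binomial test, 9.41e-18. Its adjusted p by edgeR's exact test was 1. Scaled by the ERCC spike-in RNAs instead, the median log2 ratio of all genes shifted to 0.37. None of the 6 lower calls remained lower at the threshold on that scale, and the log2 ratios were -0.15 for Bmp4, 0.16 for Tgfb2 and 0.09 for Tgfb3.

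Other genes of the pathway were taken from 5 lists chosen by their known roles, with 75 genes matched. Of these, 53 were detected, where 35.5% of all Ensembl genes and 63% of protein-coding genes were. Of the 62 with enough counts to test, 14 were called different between the libraries by the binomial test, where 20.4% of all genes were, and 2 by edgeR's exact test, where 1.57% were. Further ligands were mostly under 1 TPM, with 1 of 13 detected, Gdf9, a ligand known from oocytes, at 2.09 and 3.11 TPM in replicates 1 and 2. After it in level came Mstn, the gene of myostatin, at 0.59 and 2.3 TPM, and Lefty1, the gene of a Nodal inhibitor, at 0.38 and 1.34 TPM. Bmp10 and Inhbc were listed at 0 in both libraries. Mstn had 29 counts in replicate 1 and 105 counts in replicate 2, a log2 ratio of -1.94 (edgeR exact test, adjusted p = 3.56e-06). Myostatin is made by skeletal muscle, and the 8 muscle markers moved with it, all 8 called lower in replicate 1 by both tests, with sums of 56.01 TPM in replicate 1 and 266.8 TPM in replicate 2. Actc1 led that list with 27.4 and 112 TPM, followed by Acta1 with 8.06 and 38.1 TPM. None was at 0, and the part of muscle in the Mstn difference was not tested.

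Coreceptors and extracellular modulators were well represented. Rgmb, a BMP coreceptor of the repulsive guidance family, had 98.2 TPM in replicate 1 and 111 TPM in replicate 2, more than any receptor gene among the 44. Bmp1, which despite its name encodes a protease that cleaves Chordin, had 50.9 and 44.8 TPM, and Neo1, the gene of the receptor Neogenin, had 36.5 and 38.3 TPM. In that list 7 of 10 were detected. Of 18 modulators 14 were detected, led by Fstl1, a follistatin-like gene, at 271 and 282 TPM, Twsg1, whose product binds BMPs with Chordin, at 78.0 and 81.7 TPM, and Nbl1, a gene of the DAN antagonist family, at 45.8 and 44.3 TPM. Each of these 3 was above all 4 antagonists in the member list.

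Intracellular regulators were detected in 15 of 16 cases. The corepressor genes Tgif1 and Tgif2 had 54.5 and 55.5 TPM and 52.4 and 48.5 TPM in replicates 1 and 2, and Zfp423, a zinc finger gene whose product can act with BMP Smads, had 46.5 and 49.6 TPM. Among 18 dorsal and response genes 16 were detected. Msx1, a homeobox target of BMP signals, had 78.0 TPM in replicate 1 and 95.4 TPM in replicate 2, Tgfbi, a TGF-beta-induced matrix gene, had 53.5 and 58.1 TPM, and Msx2 had 49.1 and 52.7 TPM. Lmx1a, the roof plate regulator, had 13.3 TPM in replicate 1 and 8.32 TPM in replicate 2, a log2 ratio of 0.69 (edgeR exact test, adjusted p = 0.0469). The roof plate and choroid plexus list, which includes Lmx1a, did not follow it in sum, with 397.4 TPM in replicate 1 and 464.3 TPM in replicate 2, and 1 of its 8 genes was called higher and 3 lower in replicate 1 by the binomial test.

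Markers bear on what else the pools held. Hindbrain position genes summed to 432 and 491.4 TPM in replicates 1 and 2, led by Meis1 at 142 and 166 TPM and Pbx3 at 86.4 and 89.2 TPM, and forebrain position genes to 29.67 and 29.98 TPM, led by Lhx2 at 25.47 and 25.03 TPM and Emx2 at 2.26 and 3.86 TPM. Neuron markers summed to 2353 and 2443 TPM, with Tubb3 at 856 and 843 TPM and Ina at 470 and 509 TPM. Progenitor markers summed to 2598 and 2379 TPM, with Fabp7 at 1304 and 1151 TPM and Vim at 872 and 826 TPM. Hindbrain position genes thus stood far above forebrain position genes in each library.

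Tissues around the neural tube also use this pathway and were in the pools. Meningeal and mesenchymal markers summed to 1418 and 1837 TPM in replicates 1 and 2, with Col3a1 at 448 and 603 TPM and Col1a1 at 414 and 553 TPM. The binomial test called 8 of these 9 lower in replicate 1, where 10.7% of all genes were, and edgeR's exact test called none. Cartilage markers summed to 675.7 and 743.9 TPM, with Col2a1 at 376 and 397 TPM and Sox9, which neural cells also express, at 160 and 159 TPM. All but Sox9, 6 of 7, were called lower by the binomial test, and 3 by edgeR's exact test, where 0.942% of all genes were. These 3 were Matn1 at 3.74 and 15.57 TPM, Hapln1 at 8.06 and 17.23 TPM and Acan at 2.36 and 6.37 TPM. Their log2 count ratios were -2.04, -1.08 and -1.41, far larger in size than that of the summed list. The mesenchymal and cartilage lists ran in the direction of Bmp4, Bmp2, Tgfb2 and Tgfb3, with log2 ratios of summed TPM of -0.37 and -0.14. So did the skeletal muscle (-2.25), roof plate and choroid plexus (-0.22) and hindbrain position (-0.19) lists. The microglial, endothelial, pericyte, neuron and forebrain lists had smaller ratios below 0. The part of any list in those differences was not tested. The floor plate, erythroid, progenitor, and epithelial and otic lists ran the other way. Floor plate markers had sums of 185.7 TPM in replicate 1 and 139.8 TPM in replicate 2, with Spon1 at 125 and 88.1 TPM and Ntn1 at 47.4 and 40.9 TPM. Erythroid markers summed to 12901 and 10091 TPM, with Hbb-y at 8149 and 6362 TPM and Hba-a1 at 3005 and 2389 TPM. The choroid plexus gene Ttr had 323 and 384 TPM and Kcne2 had 14.4 and 20.7 TPM. Endothelial markers (124.2 and 130 TPM), led by Cldn5 at 24.5 and 28.4 TPM and Esam at 25.8 and 26.4 TPM, differed little between the libraries. So did pericyte markers (57.56 and 59.83 TPM), led by Pdgfrb at 29.8 and 31.6 TPM and Notch3 at 19.0 and 19.04 TPM, and microglial markers (55.53 and 60.1 TPM), led by C1qb at 25.8 and 28.2 TPM and C1qa at 11.9 and 14.4 TPM. No marker was at 0 in either library.

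**Figure D4:**
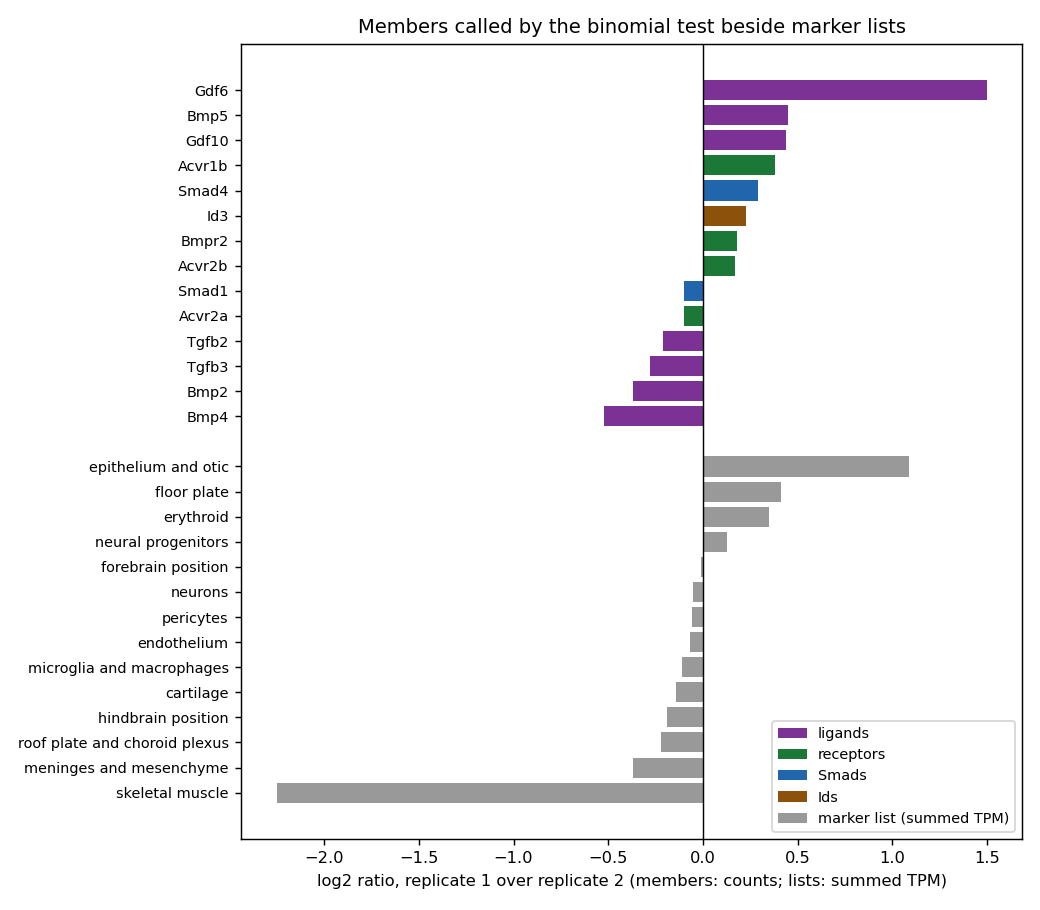
Log2 ratio, replicate 1 over replicate 2, of the 14 members called by the exact binomial test (coloured by class, from counts) above that of 14 marker lists (grey, from summed TPM). Gdf6 at 1.50 lies on the side of the epithelial and otic list at 1.09, and the skeletal muscle list at -2.25 is far beyond every member on the other side.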

How the data were processed

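RNA over 200 nt was extracted by the mirVana method and libraries were made from 10 ng of it with ERCC spike-ins, per the labels' protocols. The authors deposited expected counts, TPM and FPKM per gene and per transcript, with effective lengths, and each transcript's share of its gene as a percent, per the file headers. The deposited notes name mm10 and GENCODE M4 and a transcriptome alignment; the aligner, the quantifier and strandedness were not given in the sources used. Ensembl identifiers were named through GENCODE M21 (42462 of 43346 matched). Numbered entries naming no gene held 0.000107% and 0.000114% of the counts of replicates 1 and 2 and were left out of tests, as were the ERCC spike-ins (3.41% and 4.36%).

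The members, the added pathway lists and the marker lists were chosen with earlier results of these data known. Values per library are given for each member, for the 3 most abundant genes of each added list with any called by edgeR, for the 2 most abundant markers of each list, for the cartilage markers called by edgeR, and for transcripts by the rule stated with them. Expected counts were rounded, and genes with 10 or more counts were scaled by TMM (factors 0.99969 and 1.0003) in edgeR 4.0.16 (R 4.3.3). Replicate 1 was set against replicate 2 with exact binomial tests (two-sided, in R), adjusted by Benjamini-Hochberg, at a threshold of 0.05. Poisson intervals and the Spearman rho were computed with scipy 1.17.1. With 1 library a side no quasi-likelihood fit has residual degrees of freedom. Alternatives were edgeR's exact test with a common dispersion, DESeq2 1.42.0 size factors, ERCC or total scaling, other count minimums, posterior mean TPM, FPKM, another pseudocount, and each replicate alone. Procedures were tested on simulated data. The counts simulated for the library comparison held counting error alone, so they cannot show how the binomial test does where pools differ by more. The libraries differed by more than sampling noise (chi-square 8.27 per degree of freedom over 19208). Fragments carry no molecular identifiers, so intervals cover counting error only.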

Additional observations from a re-analysis of the deposited data

How the results depend on the processing

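The count of 14 members called was the same with DESeq2 size factors, total scaling and no count minimum, and was 15 with a minimum of 100 counts. It was 1 with edgeR's common dispersion and 30 with ERCC scaling, where all 30 were higher in replicate 1, as were 97.5% of 13010 genes called, against 47.4% of 3921 with TMM. On that scale the all-gene median log2 ratio was 0.37, and all log2 ratios below 0 became positive except those of Bmp2, Bmp4 and Inhba: Inha (0.31), Acvr1 (0.27), Nog (0.05), Chrd (0.18), Fst (0.08), Grem1 (0.28), Smad9 (0.32), Tgfb2 (0.16), Tgfb3 (0.09), Bmpr1a (0.31), Tgfbr1 (0.33), Acvr2a (0.27), Tgfbr2 (0.31), Tgfbr3 (0.23), Smad1 (0.27), Smad5 (0.31), Smad6 (0.33), Smad7 (0.27) and Id4 (0.29), none above that median. TPM rescaled without spike-ins gave sums, as means over the libraries, of 183.3 for ligands, 322.4 for receptors, 220.9 for Smads and 920.7 for Ids. Posterior mean TPM gave 162.6 for ligands and 284.4 for receptors. A pseudocount of 0.1 gave 1.63 for receptors minus ligands and 5.31 for Ids minus ligands. Shares from posterior means were 39.05% for Tgfb2-201 and 70.29% for Tgfbr2-201. Detection of 41 members became 42 at 0.5 TPM and 37 at 2 TPM, and 41 or 42 in either library alone. No paired analysis was possible because the design has 1 group. Depth limits Nodal, Gdf6, Gdf7, Tgfb1 and Smad9, the members of fewest counts, and 2 pools give an SD of little precision.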
